A study of Mus musculus with 4 samples.

Results

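The 30 genes described here make cholesterol, control its synthesis, or move, store and break down sterols. They comprised 8 enzymes of the route from acetoacetyl-CoA to squalene, 10 enzymes of the route from squalene to cholesterol, 5 genes of the SREBP system that controls these enzymes, and 7 genes of sterol transport and turnover. They were chosen by name from the pathway, and all 30 were found among the 31053 gene rows of each of the 4 count matrices. Nuclei came from perfused brains of untreated 2-month-old female C57/BL6 mice, 2 wild-type (WT) libraries and 2 libraries from mice with heterozygous loss of Csf1r (Csf1r+/-, HET). The study names 3 mice per genotype, and the third of each is not analysed here. Csf1r encodes the colony stimulating factor 1 receptor, on which microglia depend, and HET animals lack a copy of it in every cell. Nuclei were released without detergent and cleared of myelin debris with magnetic beads, and the brain region is not given. The comparison of genotypes asks how the brain cells of HET mice differ from those of WT mice at an age without symptoms.

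Because cholesterol in the blood does not cross the blood-brain barrier, brain cells make their own, and oligodendrocytes need large amounts for myelin. Acetyl units are joined to mevalonate and isoprenoids, Fdft1 joins isoprenoids to squalene, Sqle and Lss turn squalene into the first sterol, and a chain of enzymes trims this to cholesterol. When membrane sterol is low, the escort protein Scap carries the SREBP transcription factors (genes Srebf1 and Srebf2) to the Golgi for activation, and Insig1 and Insig2 hold them back when sterol is plentiful. Liver X receptors (Nr1h2 and Nr1h3) sense oxysterols and raise the exporters Abca1 and Abcg1, Soat1 stores cholesterol as esters, Lrp1 takes up lipoproteins, and Cyp46a1 makes the hydroxylated sterol by which neurons dispose of cholesterol.

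The genes' promoters were read to show the letters that SREBP factors and their partners are known to bind. Windows of 300 bases, from 250 before to 50 after a RefSeq transcript start on GRCm38.p6, were found for 26 of the 30 genes and were searched on both strands. The sterol regulatory element TCACNCCAC was found in 1 of the 26 genes, Hmgcs1, against 1.44% of 27025 mouse genes, and its shorter core TCACNCCA, which overlaps it, in 3, Hmgcs1, Msmo1 and Srebf2, against 4.97%. The 3 stretches are given because these genes stood high in oligodendrocytes, with the element in capitals and the strand of the gene read 5′ to 3′.
Hmgcs1: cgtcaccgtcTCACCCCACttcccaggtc
Msmo1: ctcactattcTCACTCCAtccgcgcagc
Srebf2: tgacgcaccaTCACCCCAtgagccgctt
The Hmgcs1 stretch lies at chr13:119690204-119690232 (+), 137 bases before the start. That of Msmo1 lies at chr8:64733738-64733765 (-), 177 bases before the start, and that of Srebf2 at chr15:82147097-82147124 (+), 162 bases before it.

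The E-box CACGTG, which reads alike on both strands and is bound by SREBP-1 and other factors, was found in 6 of the 26 genes (Hsd17b7, Sc5d, Dhcr7, Scap, Insig1 and Abca1), against 8.09% of all genes. The stretches of Insig1 (chr5:28071301-28071326, +, 101 bases before the start) and of Abca1 (chr4:53160027-53160052, -, 147 bases before it) are shown since these genes stood highest in oligodendrocytes and in microglia, with the E-box in capitals.
Insig1: tgggtgaggtCACGTGgctccggtgg
Abca1: gccatgtctcCACGTGctttctgctg
The CCAAT box, a partner element of many sterol genes, was in 20 of the 26 genes, against 41.1% of all genes. A pair of AGGTCA motifs 4 bases apart, the repeat known for liver X receptors, was in 0 of the 26, against 0.0148% of all genes. Only the exact repeat was searched, which 5 of 32851 windows held. It is so rare that 0 of 26 cannot tell whether these promoters hold inexact repeats, and Abcg1 had no window. A match describes letters in the window and not a bound site.

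Of 53990 nuclei, 52132 passed the study's limits, 16114 and 15247 from the WT and 9589 and 11182 from the HET libraries, with median counts of unique molecular identifiers (UMIs, each 1 captured transcript) of 4636 to 7454 per nucleus. Pairs of libraries shared 33 to 68 cell barcodes, none with the same UMI total. Clusters, made without the 30 genes, gave 25381 nuclei of excitatory neurons, 7720 of inhibitory neurons, 2254 of oligodendrocytes, 647 of microglia and 449 of endothelial cells. The defining markers fitted these names: Mog was at 836 to 962 CPM (UMIs of the gene scaled to 1000000 UMIs of the class) in oligodendrocytes against 0.558 to 3.54 CPM in excitatory neurons, C1qa at 1247 to 2408 CPM in microglia and Flt1 at 3827 to 4869 CPM in endothelial cells. Another 11091 nuclei lay in neuron clusters that the naming rule placed in neither class. By marker counts per nucleus, 1406 of them were excitatory and 1001 inhibitory, so both classes leave out some neurons of their kind. These nuclei enter only the account of neuron clusters, where they are called other neurons. Levels in neurons therefore refer to the excitatory and inhibitory classes as named. The 127 astrocyte nuclei carried neuron RNA at 48.8% to 83.4% of the neuron level and are not described gene by gene. Csf1r, the targeted gene, was at 862 and 869 CPM in WT microglia and at 610 and 587 CPM in HET microglia. In excitatory neurons it was at 0.371 and 1.30 CPM in WT and at 3.78 and 4.51 CPM in HET. WT library 2 stood apart within oligodendrocytes, where 1181 of its 1185 nuclei fell in 2 clusters that held 17 nuclei of the other libraries. Another cluster took 156 of its 163 nuclei from WT library 1, and another 137 and 109 of its 260 from HET libraries 1 and 2. Endothelial cells joined a cluster with 223, 36, 32 and 45 nuclei of WT libraries 1 and 2 and HET libraries 1 and 2, and another with 5, 43, 36 and 29. The part of this mix in endothelial levels was not tested. RNA of neurons was also counted in glial nuclei. By the median pan-neuronal marker it reached 15.6% and 17.3% of the neuron level in WT oligodendrocytes against 6.09% and 9.25% in HET, 26.0% and 31.1% against 11.0% and 22.3% in microglia, and 23.0% and 23.9% against 9.45% and 13.7% in endothelial cells.

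Relative to all UMIs of a class, cholesterol synthesis transcripts were most abundant in oligodendrocytes among the 5 classes. These are shares and not counts per nucleus. Median UMIs per nucleus were 1692 to 2028 over the libraries in oligodendrocytes and 5729 to 9238 in excitatory neurons. The 18 enzymes had 2068 UMIs over 2254 oligodendrocyte nuclei and 42847 UMIs over 25381 excitatory nuclei. The 18 enzymes together were at 470 and 407 CPM in the oligodendrocytes of WT libraries 1 and 2 and at 522 and 546 CPM in those of HET libraries 1 and 2. In excitatory neurons the sum was 213, 202, 198 and 183 CPM in the same order, and in inhibitory neurons 189, 189, 183 and 168 CPM. Endothelial cells lay between, at 338, 359, 429 and 279 CPM from 246 UMIs in all, and microglia at 196, 139, 149 and 116 CPM from 135 UMIs. WT library 2 aside, the oligodendrocyte sum ran from 470 to 546 CPM. The lowest endothelial library lay above every excitatory and inhibitory library, whereas the oligodendrocyte and endothelial values overlapped. Other neurons were at 283, 273, 300 and 247 CPM, and the astrocyte nuclei at 432 to 510 CPM on 211 UMIs.

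By the mean of the 4 libraries, 16 of the 30 genes were highest in oligodendrocytes, 7 in endothelial cells, 6 in microglia, 1 in inhibitory neurons and 0 in excitatory neurons. Over all 22046 genes with counts the same ranking put 15.1% in oligodendrocytes, 24.4% in endothelial cells, 23.2% in microglia, 19.9% in inhibitory neurons and 17.5% in excitatory neurons, where 5.1% lay above all other classes without overlap. Without WT library 2, 15 of the 30 were highest in oligodendrocytes. For 8 of the 30 genes every oligodendrocyte library lay above every library of the other 4 classes, against 4.47% of all genes. The 8, all among the 16, were Fdft1, Sqle, Lss, Cyp51, Msmo1, Dhcr7, Srebf2 and Insig1. Of all 3324 genes highest in oligodendrocytes by the mean, 986 separated in this way. Levels over classes are a description without a test, since the classes come from clusters of the same nuclei. Over the other 31 sterol and lipid genes of a companion list, 10 were highest in oligodendrocytes, 7 in inhibitory neurons, 6 in microglia, 6 in endothelial cells and 2 in excitatory neurons.

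**Figure D1:**
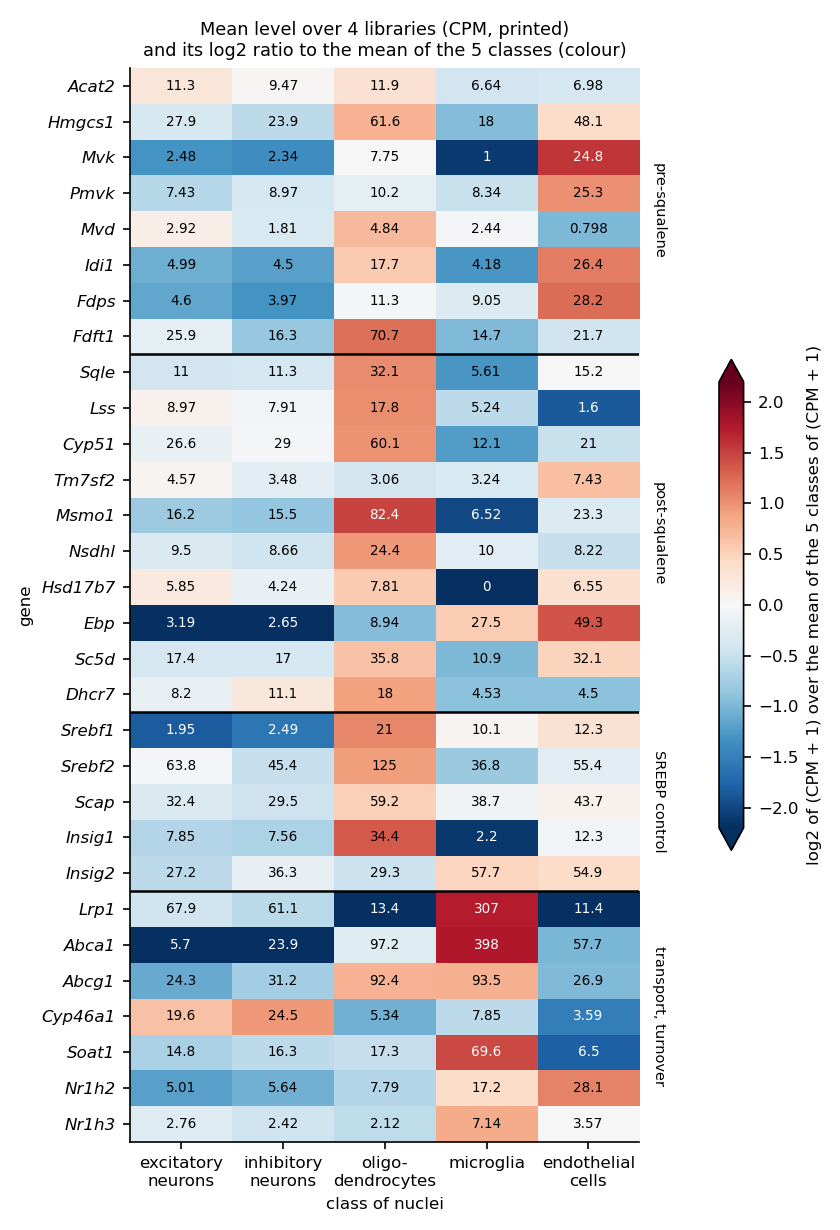
Mean level over the 4 libraries of the 30 genes (rows, in 4 role groups) in 5 classes of nuclei (columns), printed in CPM and colored by the log2 ratio of level + 1 CPM to the mean of the 5 classes. Most enzymes and SREBP genes are reddest in oligodendrocytes (Msmo1 82.4 CPM), and Lrp1, Abca1 and Soat1 in microglia (307, 398 and 69.6 CPM).

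**Figure D2:**
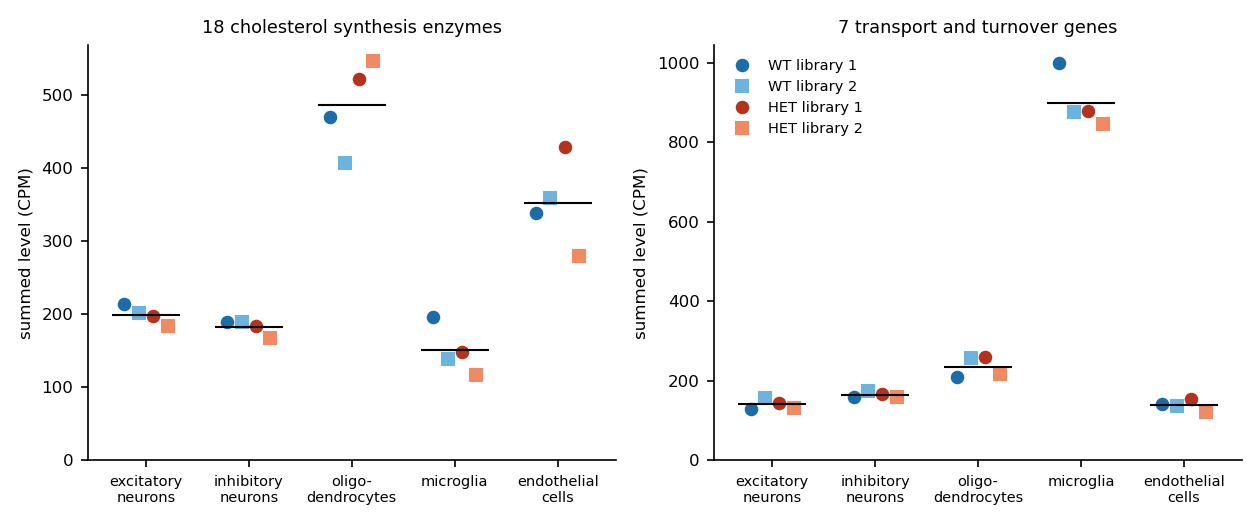
Summed level in CPM (y axis) of the 18 synthesis enzymes (left) and the 7 transport and turnover genes (right) in each class, with 1 point per library and a line at the mean of 4. Oligodendrocytes lie highest on the left (407 to 546 CPM) and microglia on the right (846 to 1000 CPM).

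The first 8 enzymes divided between oligodendrocytes and endothelial cells, 4 highest in each. Hmgcs1, which makes HMG-CoA, was at 66.3 and 50.4 CPM in WT oligodendrocytes and 66.0 and 63.9 CPM in those of HET mice, against 33.1, 27.3, 26.7 and 24.5 CPM in excitatory neurons. Endothelial Hmgcs1 ranged from 15.3 to 71.5 CPM on 2 to 13 UMIs per library and overlapped the oligodendrocytes. Fdft1, the squalene synthase, was at 82.1, 57.0, 78.2 and 65.5 CPM in oligodendrocytes, against 27.3, 27.0, 22.8 and 26.6 CPM in excitatory neurons and 16.2, 15.7, 15.9 and 17.3 CPM in inhibitory neurons. All 4 oligodendrocyte libraries stood above all others, and excitatory neurons stood above inhibitory neurons without overlap.

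Acat2, the thiolase of the first step, was near level across the classes, at 8.91 to 13.2 CPM in oligodendrocytes and 9.08 to 13.7 CPM in excitatory neurons, with 2 of 4 libraries higher in each. Mvd, which decarboxylates mevalonate diphosphate, had 19 UMIs in oligodendrocytes and 1 UMI in endothelial cells.

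Mevalonate kinase (Mvk) was at 31.9, 7.99, 30.7 and 28.6 CPM in endothelial cells and between 1.99 and 2.96 CPM in every excitatory and inhibitory library. Phosphomevalonate kinase (Pmvk) was at 25.5, 24.0, 23.0 and 28.6 CPM in endothelial cells and no higher than 15.9 CPM in any library of the other 4 classes. Fdps, which makes farnesyl diphosphate, was at 22.3, 24.0, 30.7 and 35.7 CPM in endothelial cells, against 8.91 to 14.2 CPM in oligodendrocytes and 3.74 to 5.95 CPM in excitatory neurons. Pmvk and Fdps did not overlap any of the other 4 classes, as for 8.63% of all genes in endothelial cells, but these levels rest on 3 to 8 UMIs per library. Fdps also shares its strand with another annotated gene, Gm43738, so that reads of the pair could be split. Idi1, the isopentenyl diphosphate isomerase, was at 16.0 to 46.0 CPM in endothelial cells and 12.5 to 23.3 CPM in oligodendrocytes, which overlapped.

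Of the 10 enzymes after squalene, 8 were highest in oligodendrocytes. Msmo1, a sterol methyl oxidase that strips the methyl groups at carbon 4 of lanosterol derivatives, showed the widest gap to excitatory neurons among the 18 enzymes. It was at 77.3 and 69.1 CPM in the WT libraries and 84.3 and 99.0 CPM in the HET libraries of oligodendrocytes, against 18.1, 15.7, 16.7 and 14.2 CPM in excitatory neurons. The ratio of the 2 classes, taken in each library and averaged over the 4, was 5.17. The next class, endothelial cells, ended at 31.9 CPM. Cyp51, the lanosterol demethylase, was at 61.5, 49.9, 70.0 and 59.1 CPM in oligodendrocytes and at 23.0 to 31.3 CPM across the excitatory and inhibitory libraries. Cyp51 overlaps Akap9 on the other strand.

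Sqle, the squalene epoxidase, was at 22.1, 29.0, 43.7 and 33.5 CPM in oligodendrocytes and at no more than 21.4 CPM in any library of the other 4 classes. Lss, the lanosterol synthase, was at 12.6, 13.4, 13.2 and 31.9 CPM there, HET library 2 standing well above the others, and its highest value in the other 4 classes was 12 CPM, in 1 microglia library on 3 UMIs. Dhcr7, the last reductase for 7-dehydrocholesterol, was at 18.9, 14.7, 19.3 and 19.2 CPM in oligodendrocytes, and inhibitory neurons followed at 12.6, 11.9, 10.5 and 9.60 CPM. Sc5d, the lathosterol desaturase, was at 31.6 to 41.5 CPM in oligodendrocytes but overlapped endothelial cells (21.4 to 39.9 CPM). Nsdhl, a sterol dehydrogenase, was at 12.6 to 36.7 CPM in oligodendrocytes and Hsd17b7, its partner reductase, at 6.68 to 9.47 CPM, and Hsd17b7 had 0 UMIs in microglia in all 4 libraries.

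Ebp, the sterol isomerase, was the enzyme with the clearest signal in microglia. It was at 22.3, 13, 48.2 and 26.4 CPM there on 25 UMIs and at 35.1, 55.9, 92.0 and 14.3 CPM in endothelial cells on 32 UMIs, against 1.77 to 4.20 CPM in the excitatory and inhibitory libraries. Microglial Ebp was 9.70 to 125 times the level estimated from neuron RNA. Tm7sf2, a sterol reductase that shares its strand with Vps51, had 5 to 16 UMIs in the endothelial and oligodendrocyte classes and showed no separation. In microglia 14 of the 18 enzymes had 10 or fewer UMIs over the 4 libraries.

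In all 4 libraries, 14 of the 18 enzymes and 21 of the 30 genes were higher in oligodendrocytes than in excitatory neurons. The share of all genes was not computed for this comparison, so these counts have no background. Since WT oligodendrocytes carried more neuron RNA than HET ones, their levels include more of the neuron level, and its part in the differences between libraries was not tested.

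The SREBP genes followed the enzymes, with 4 of 5 highest in oligodendrocytes. Srebf2, the factor named for sterol synthesis, was at 145 and 113 CPM in oligodendrocytes of the WT libraries and 116 and 126 CPM in those of the HET libraries. Excitatory neurons were at 57.1, 66.0, 69.1 and 62.8 CPM, endothelial cells at 41.5 to 78.6 CPM and microglia at 16.1 to 52.1 CPM, so that no library of these or of inhibitory neurons reached the oligodendrocytes. Srebf1, the factor tied more to fatty acid synthesis, had the widest gap of the 30 genes between oligodendrocytes and excitatory neurons after Abca1. It was at 23.7, 21.8, 22.3 and 16.0 CPM against 1.78, 2.81, 1.39 and 1.82 CPM, and microglia and endothelial cells lay between by their means (7.67 to 19.1 CPM, on 9 and 10 UMIs), the latter overlapping oligodendrocytes.

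Insig1 and Insig2, which encode related retention proteins, parted by class. Insig1 was at 28.4, 42.8, 34.5 and 31.9 CPM in oligodendrocytes and at 4.47, 4.34, 0 and 0 CPM in microglia. Insig2 showed the reverse order, at 67.0, 52.1, 48.2 and 63.4 CPM in microglia, 30, 29.4, 24.4 and 33.5 CPM in oligodendrocytes and 25.6 to 29.6 CPM in excitatory neurons, with endothelial cells (30.7 to 71.9 CPM) overlapping both glial classes. Scap was highest in oligodendrocytes at 52.7 to 67.0 CPM, but 1 endothelial library reached 76.7 CPM.

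**Figure D3:**
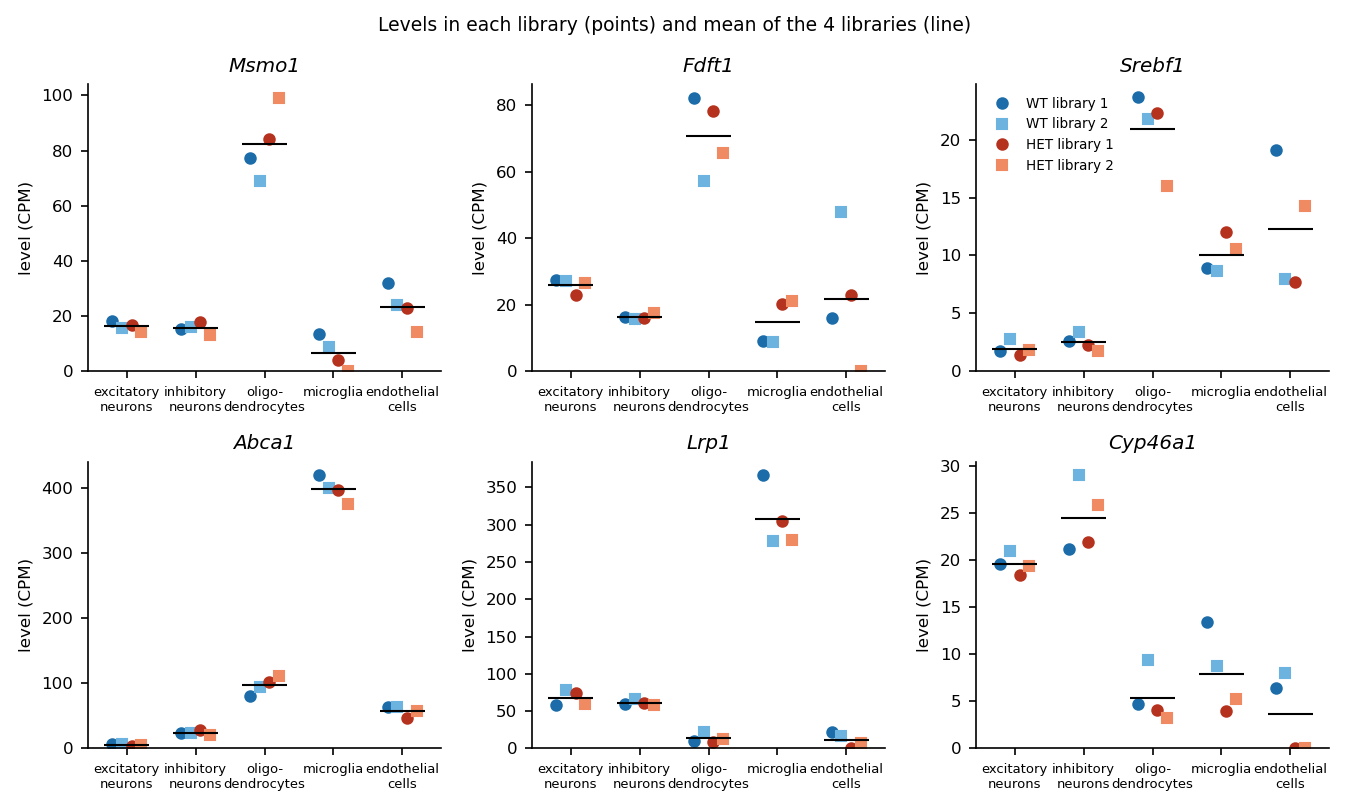
Level in CPM (y axes, each from 0) of Msmo1, Fdft1, Srebf1, Abca1, Lrp1 and Cyp46a1 in the 5 classes, with 1 point per library and a line at the mean of 4. Oligodendrocytes separate for Msmo1 (69.1 to 99.0 CPM), microglia for Abca1 (375 to 420 CPM) and Lrp1 (278 to 366 CPM), and neurons lie above the glia for Cyp46a1.

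Among the 5 classes, the transport and turnover genes summed highest in microglia instead. The 7 genes summed in microglia to 1000 and 878 CPM in the WT libraries and 879 and 846 CPM in the HET libraries, against 210 to 259 CPM in oligodendrocytes and 122 to 175 CPM in the other 3 classes, and 5 of the 7 were highest in microglia. For Abca1, Lrp1 and Soat1 no library of the other 4 classes reached the microglia, as for 6.56% of all genes. Abcg1 and Nr1h3 overlapped other classes. Outside the 5 classes, oligodendrocyte precursors summed to 633, 515, 304 and 644 CPM on 168 UMIs. Mural cells summed to 293 to 349 CPM on 132 UMIs, and the astrocyte nuclei to 258 to 428 CPM on 143 UMIs.

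Abca1, the exporter that loads cholesterol onto apolipoproteins, was at 420, 400, 397 and 375 CPM in microglia. Oligodendrocytes followed at 80.5, 94.9, 102 and 112 CPM, endothelial cells at 63.8, 63.9, 46.0 and 57.2 CPM, inhibitory neurons at 23.4, 24.0, 27.5 and 20.7 CPM and excitatory neurons at 6.94, 6.19, 3.91 and 5.75 CPM. None of the 5 classes overlapped its neighbor in this order. Abcg1, which exports cholesterol to formed lipoprotein particles, was nearly as high in oligodendrocytes (90, 99.4, 115 and 65.5 CPM) as in microglia (121, 73.9, 84.3 and 95.1 CPM), and those classes overlapped.

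Lrp1, the lipoprotein receptor, was at 366, 278, 305 and 280 CPM in microglia and at 58.7, 78.5, 74.8 and 59.7 CPM in excitatory neurons. In oligodendrocytes it was at 9.47, 22.3, 9.14 and 12.8 CPM, which was 1.01 to 2.31 times the level estimated from neuron RNA alone. The 125 nuclei of oligodendrocyte precursors, in contrast, held Lrp1 at 330, 224, 164 and 451 CPM on 12, 53, 7 and 7 UMIs, and precursors did not overlap mature oligodendrocytes. Soat1, the cholesterol acyltransferase, was at 71.4, 91.2, 68.2 and 47.6 CPM in microglia and at 13.4 to 19.3 CPM in neurons and oligodendrocytes.

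Cyp46a1, the cholesterol 24-hydroxylase, was the only one of the 30 genes with its highest mean in a neuron class. It was at 21.2, 29.0, 21.9 and 25.8 CPM in inhibitory neurons, followed by 19.5, 20.9, 18.4 and 19.4 CPM in excitatory neurons, as for 5.05% of all genes without overlap with the other 4 classes. In oligodendrocytes it was at 3.19 to 9.36 CPM, 1.52 to 3.46 times the estimate from neuron RNA. The liver X receptor genes were low throughout, Nr1h2 at 4.54 to 6.04 CPM and Nr1h3 at 2.07 to 3.33 CPM in neurons. Nr1h2 reached 7.99 to 53.7 CPM in endothelial cells and 8.93 to 26.4 CPM in microglia on 19 and 15 UMIs, and these overlapped.

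Within oligodendrocytes the enzymes differed between the clusters that carried Opalin (1210 nuclei) and those that carried Anln (1044 nuclei). This division was chosen after the clusters were seen and is a description. Enpp6, a marker used here for newly formed oligodendrocytes, was among the leading genes of each Anln cluster and of no Opalin cluster. The same held for Prr5l, a marker used here for oligodendrocytes. A marker was counted when detected in 10% of nuclei at 2 times the level of other nuclei. By this count each Anln cluster had 2 markers of newly formed oligodendrocytes and 8 or 9 of oligodendrocytes. Each Opalin cluster had 1 and 9. The newly formed markers were Bcas1, Enpp6, Gpr17, Itpr2 and Tcf7l2. All these clusters had 0 markers of oligodendrocyte precursors. Mog had a mean of 871 CPM in Opalin nuclei and 901 CPM in Anln nuclei. The part of maturation in the differences below was not tested. The 18 enzymes summed to 357, 340, 501 and 419 CPM in the Opalin nuclei and to 550, 467, 556 and 720 CPM in the Anln nuclei of WT libraries 1 and 2 and HET libraries 1 and 2, higher in the Anln nuclei of each library. By the mean, 17 of the 18 enzymes were higher in the Anln nuclei, Sc5d being the exception, against 48.6% of 12586 genes. In each of the 4 libraries 7 of the 18 enzymes were higher there (Hmgcs1, Idi1, Sqle, Lss, Nsdhl, Ebp and Dhcr7), and 10 of the 30 genes with Srebf2, Abcg1 and Cyp46a1, against 12.8% of all genes. Some rest on few UMIs in Opalin against Anln nuclei, as Ebp on 3 against 2 in HET library 1 and Cyp46a1 on 0 against 2 in HET library 2.

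Values did not overlap between the groups of nuclei for 3 genes, and the share of all genes without such overlap was not computed. Hmgcs1 was at 57.5, 41.8, 52.4 and 52.7 CPM in Opalin nuclei and 72.4, 57.9, 88.2 and 79.2 CPM in Anln nuclei, the lowest Anln value just above the highest Opalin value. Dhcr7 was at 15.3, 8.54, 14.7 and 8.31 CPM against 21.4, 20.2, 26.7 and 33.9 CPM, on 4, 9, 9 and 3 UMIs against 8, 24, 10 and 9 UMIs. Srebf2 was at 115, 106, 101 and 116 CPM against 166, 119, 139 and 139 CPM. Srebf1 went the other way in 4 of 4 libraries, at 38.4, 28.5, 22.9 and 16.6 CPM in Opalin nuclei and 13.4, 16.0, 21.4 and 15.1 CPM in Anln nuclei, as did Lrp1. The neuron marker Snap25 was higher in Opalin nuclei in each library (253, 214, 96.5 and 139 CPM against 177, 191, 74.9 and 86.7 CPM), and its part in these differences was not tested.

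Neurons were not uniform either. Over 31 neuron clusters with enough counts, the 18 enzymes summed to 370, 352, 460 and 294 CPM in an excitatory cluster led by Col18a1 and Irx2 (303 nuclei), against a median cluster of 191 CPM. By the mean, 9 of the 30 genes were highest in that cluster, which held 40 nuclei of HET library 2. The share of all genes highest there was not computed, so this count has no background. Hmgcs1 was there at 46.6, 60.5, 69.4 and 50.5 CPM, above every library of the second cluster, against a median of 28.1 CPM. Among all clusters it was highest there in 3 of the 4 libraries. Hsd17b7 was at 20.6, 31.7, 28.1 and 16.8 CPM on 57 UMIs, also without overlap with the second cluster, against a median of 5.26 CPM. The other 7 genes highest there by the mean (Acat2, Mvd, Idi1, Sqle, Cyp51, Nsdhl and Insig1) overlapped the second cluster. Each of the 7 was highest there in only 1 or 2 of the 4 libraries.

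Abca1 was concentrated in a pair of inhibitory clusters. It was at 57.1, 72.2, 76.8 and 45.6 CPM in a cluster led by Gm8239 and Pde1c and at 69.7, 53.8, 57.7 and 57.5 CPM in one led by Lgr6 and Frmd7, whereas the third cluster had a mean of 27.0 CPM and the median cluster 7.14 CPM. The glial marker Slc1a3 was at 217, 136, 258 and 241 CPM in the Gm8239 cluster, and its part in the Abca1 level was not tested. Lrp1 was highest in each of the 4 libraries in an excitatory cluster led by Teddm3 and Hsd11b1, at 108, 140, 151 and 121 CPM against a median of 63.7 CPM, although that cluster had the lowest enzyme sum (129 CPM). By the mean, Srebf2 was highest in an excitatory cluster led by Matn4, at 97.0, 104, 112 and 103 CPM. It was highest there in 3 of the 4 libraries and overlapped the second cluster, led by Hmga2 (mean 98.0 CPM).

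**Figure D4:**
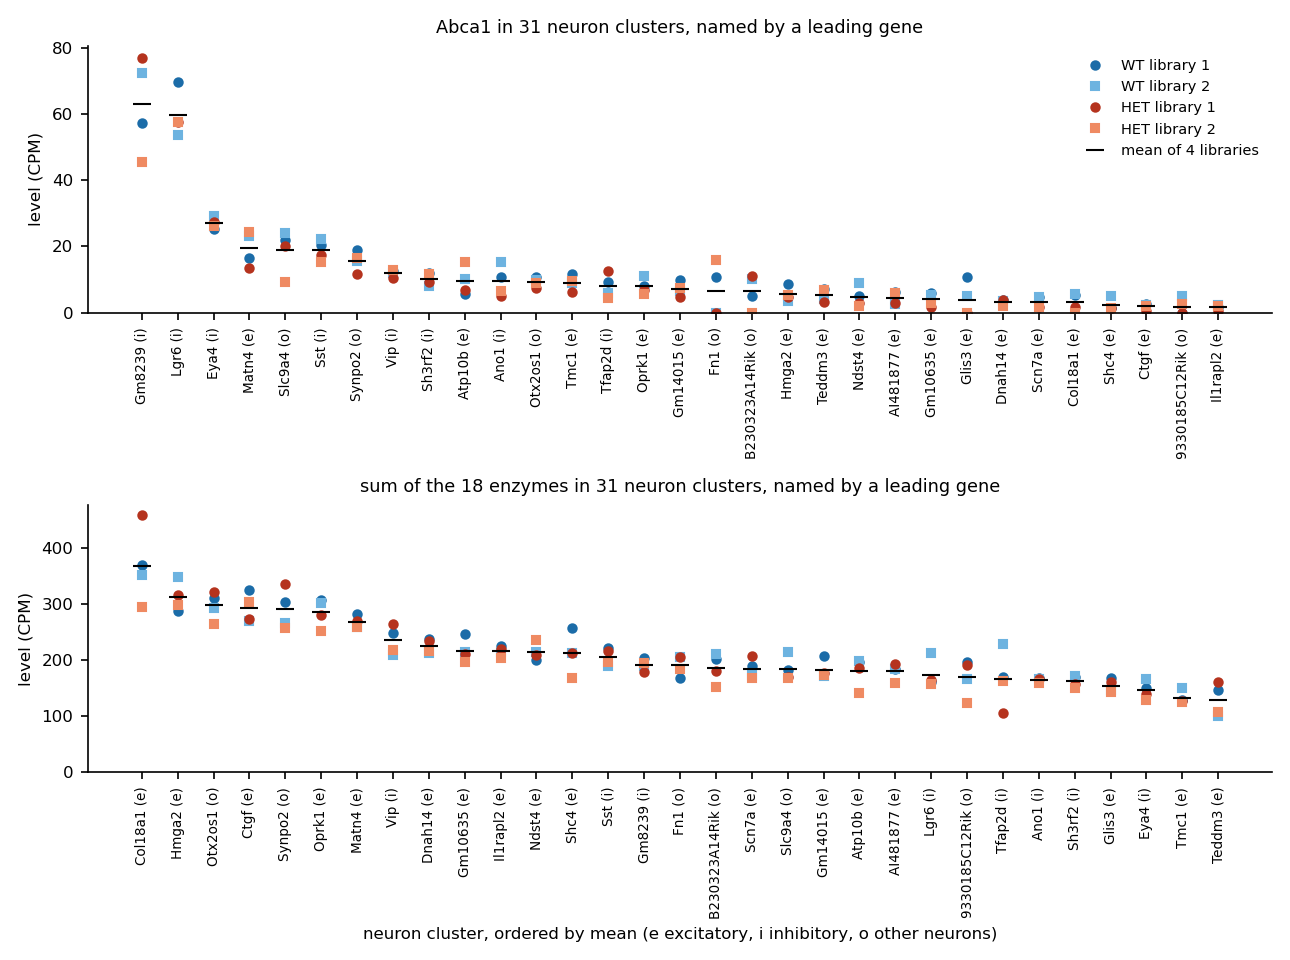
Level in CPM (y axes, from 0) of Abca1 (top) and of the 18 enzymes summed (bottom) in 31 neuron clusters ordered by mean, with 1 point per library and a line at the mean. Abca1 stands apart in the Gm8239 and Lgr6 clusters (means 62.9 and 59.7 CPM), and the enzyme sum falls gradually from 369 CPM in the Col18a1 cluster.

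HET and WT libraries were then compared within each class by edgeR's quasi-likelihood test on counts summed per library, at the study's threshold of unadjusted p under 0.01, for genes detected in 10% or more of the nuclei of a genotype. None of the genes past this filter was called in any class. In excitatory neurons 0 of 12 tested genes passed (0.302% of all genes did), in inhibitory neurons 0 of 9 (0.155%), in oligodendrocytes 0 of 8 (5.36%), in microglia 0 of 3 (8.32%) and in endothelial cells 0 of 1 (5.31%). At p under 0.05 the counts were 0 in each class too (1.59%, 2.04%, 11%, 14.9% and 12.8% of all genes in the same order), as they were at both limits by DESeq2. At adjusted p under 0.05 these tested genes also gave 0, against 5.7% of all genes in microglia and 1.44% in endothelial cells. The labels' design counts 2 mice per genotype. The p-values rest on 2 libraries per group only, and edgeR draws the spread of each gene towards that of all genes fitted.

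**Figure D5:**
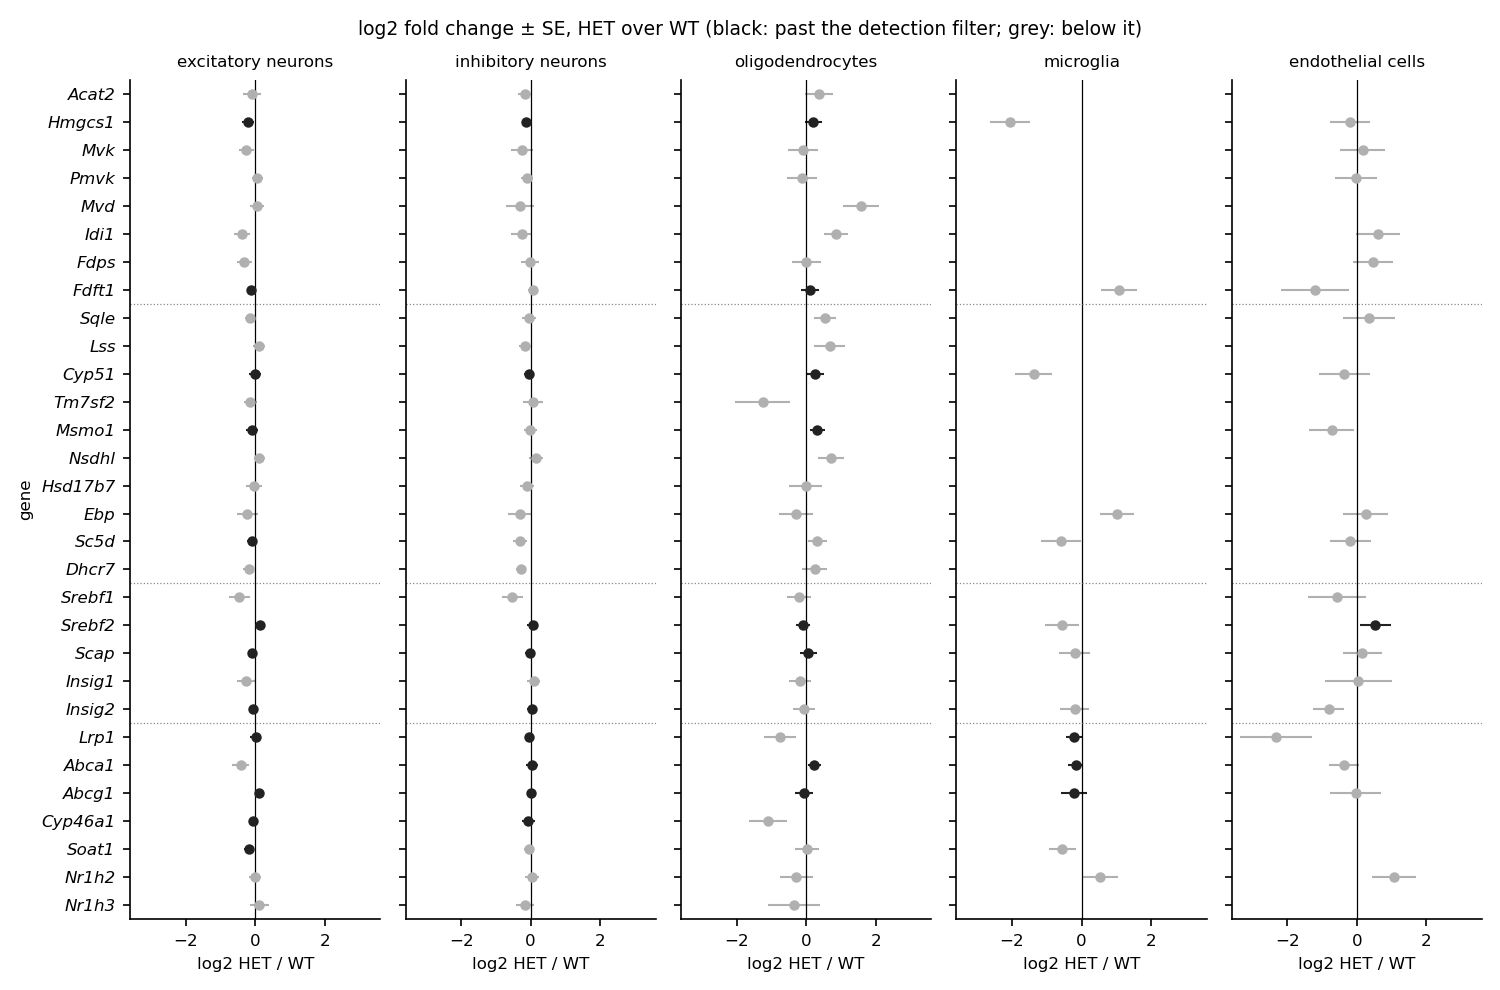
Log2 fold change of HET over WT (x axes) for the 30 genes (rows) in 5 classes (panels), with a standard error derived from the test statistic. Points are black where a gene passed the 10% detection filter and gray below it. The black points lie between -0.22 and 0.53, and the widest gray points (Hmgcs1 in microglia, Lrp1 in endothelial cells) rest on 16 and 10 UMIs.

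In excitatory neurons the 12 genes ranged from -0.21 to 0.13 on the log2 scale, with 3 above and 9 below 0 (50.8% of all genes lay below) and a median of -0.08 (all genes -0.0016). Hmgcs1 was at 35.0 and 27.1 CPM in the WT libraries against 28.0 and 25.7 CPM in the HET libraries after TMM scaling, a log2 fold change of -0.21 (SE 0.16, edgeR unadjusted p = 0.248). This rested on the WT libraries, since it was -0.014 without WT library 1 and -0.37 without WT library 2 (edgeR unadjusted p = 0.0489). Soat1 was at 15 and 17.4 against 14 and 14.7 CPM (-0.17, SE 0.14), and Srebf2 at 60.5 and 65.5 against 72.4 and 65.9 CPM (0.13, SE 0.11). HET and WT values did not overlap for 6 of the 12, Insig2, Soat1, Scap and Cyp46a1 lower and Srebf2 and Abcg1 higher in HET, against 19.7% of all genes, but the steps were small.

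Inhibitory neurons showed still smaller differences, from -0.12 to 0.06 over 9 genes, 5 of them below 0 (51.6% of all genes), with a median of -0.03 (all genes -0.0049). The largest were Hmgcs1 (26.4 and 26.6 against 23.1 and 25.6 CPM, log2 fold change -0.12, SE 0.13), Cyp46a1 (22.8 and 30.4 against 23.2 and 27.6 CPM, -0.07, SE 0.19) and Lrp1 (63.3 and 69.4 against 64.4 and 62.8 CPM, -0.06, SE 0.11). Of these, only Hmgcs1 did not overlap between the genotypes, 1 of 9 genes against 24.8% of all genes. Leaving out WT library 2 turned the sign of Cyp46a1 (0.17) and of Lrp1 (0.022), and leaving out HET library 1 turned that of Cyp46a1 (0.06). The median of the 9 turned to 0.032 without WT library 2 and to 0.031 without HET library 2. With the genes below the filter, 0 of the 30 had p under 0.05 in either neuron class by edgeR, against 3.05% of all genes in excitatory and 3.27% in inhibitory neurons.

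In oligodendrocytes 6 of 8 genes lay above 0 and 2 below (46.5% of all genes), with a median of 0.16 (all genes 0.02). Msmo1 was at 91.6 and 80.9 CPM in the WT libraries against 100 and 114 CPM in the HET libraries (log2 fold change 0.32, SE 0.21, edgeR unadjusted p = 0.164), Abca1 at 95.3 and 111 against 121 and 128 CPM (0.24, SE 0.19), and Cyp51 at 72.9 and 58.5 against 83.1 and 67.9 CPM (0.26, SE 0.25). Msmo1 and Abca1 did not overlap between the genotypes, 2 of 8 genes against 36.5% of all genes. The median moved to -0.00069 without WT library 2, whose nuclei lay almost all in 2 clusters, and to 0.00039 without HET library 1. Leaving out WT library 2 kept the cluster made mostly of WT library 1 nuclei (156 of 163). The mix of oligodendrocyte clusters also differed between the genotypes. Opalin nuclei numbered 160 and 571 in the WT libraries and 290 and 189 in the HET libraries. Anln nuclei, in which the enzyme sum was higher, numbered 173 and 614 against 141 and 116. The part of this mix in the fold changes of the class was not tested. The share of neuron RNA was lower in both HET libraries. With neuron RNA subtracted, the median was 0.065 with 5 genes above and 3 below 0, Abca1 was at 0.11 and Msmo1 at 0.20.

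Below the detection filter, Idi1 in oligodendrocytes was at 14.9 and 14.6 CPM in the WT libraries against 27.7 and 25.7 CPM in the HET libraries, on 8, 28, 23 and 14 UMIs (log2 fold change 0.86, SE 0.35, edgeR unadjusted p = 0.0338). Mvd was at 1.87 and 3.13 against 8.44 and 9.18 CPM on 1, 6, 7 and 5 UMIs (1.59, SE 0.52, edgeR unadjusted p = 0.0162). Both enzymes act between mevalonate and farnesyl diphosphate, and both were higher in HET without overlap. Of all genes past the filter, 36.5% did not overlap. The other enzymes of that stretch, Mvk, Pmvk and Fdps, were at -0.10, -0.11 and 0.01 on the log2 scale. By DESeq2 p was 0.227 for Idi1 and 0.205 for Mvd, and with neuron RNA subtracted 0.279 and 0.409. In a fit of all 12586 genes with enough counts, without the filter, 3 of the 30 (Idi1, Mvd and Nsdhl, all higher in HET) had p under 0.05, against 8.6% of all genes.

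In microglia only Abca1, Lrp1 and Abcg1 passed the filter, all below 0 (47.8% of all genes). Abca1 was at 551 and 529 CPM in the WT libraries against 490 and 470 CPM in the HET libraries (log2 fold change -0.17, SE 0.21, edgeR unadjusted p = 0.435), which did not overlap, as for 43.7% of all genes. Lrp1 was at 481 and 368 against 376 and 351 CPM (-0.22, SE 0.23) and Abcg1 at 158 and 97.7 against 104 and 119 CPM (-0.21, SE 0.38). The sign of Abcg1 turned without WT library 1 (0.18). The median of the 3 was -0.21, against 0.02 for all genes, and it was -0.015 without WT library 1, where Lrp1 was at -0.015, and -0.41 without WT library 2.

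Hmgcs1 in microglia, below the filter, was at 46.9 and 28.7 CPM in the WT libraries against 4.95 and 13.2 CPM in the HET libraries, on 8, 5, 1 and 2 UMIs (log2 fold change -2.06, SE 0.57, edgeR unadjusted p = 0.00818). That p ranged from 0.0076 to 0.453 over 12 alternatives, with 0.111 by DESeq2 and 0.119 without HET library 1. The WT libraries held more neuron RNA in these nuclei. After its subtraction the log2 fold change was -2.99 with an SE of 3.87 and p was 0.453. In a fit of all genes without the filter, 0 of the 13 genes with enough counts had p under 0.01 and 1, Hmgcs1, had p under 0.05, against 3.83% and 9.54% of all genes. Another 17 of the 30 genes had too few UMIs in microglia to be fitted, and so had 10 in endothelial cells.

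In endothelial cells Srebf2 alone passed the filter. It was at 51.8 and 61.0 CPM in the WT libraries against 64.4 and 93.1 CPM in the HET libraries, without overlap. Its log2 fold change was 0.53 (SE 0.44, edgeR unadjusted p = 0.254). Of all genes, 42.8% did not overlap and 48% lay below 0. The endothelial clusters were unevenly spread over the libraries, and the part of this mix in the fold changes was not tested. Below the filter, Lrp1 was at 27.9 and 20.3 CPM in the WT libraries against 0 and 8.46 CPM in the HET libraries on 7, 2, 0 and 1 UMIs (-2.33, SE 1.04, edgeR unadjusted p = 0.0430). Endothelial Lrp1 was 0 to 1.62 times the level estimated from neuron RNA, which was itself higher in WT and whose part was not tested. In a fit of all genes without the filter its p was 0.0773 by edgeR, and 0 of 20 genes had p under 0.05, against 8.84% of all genes. Of the companion genes, 0 passed p under 0.01 in any class by edgeR, among 23, 18, 13, 8 and 12 tested in the order of the classes above, and 0, 0, 1, 0 and 2 had p under 0.05.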

How the data were processed

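Single-nucleus libraries were made with 10x Genomics reagents, and the authors counted UMIs with Cell Ranger on mm10, per the labels. The deposited values are whole-number counts per gene and called nucleus, unnormalized. The 30 genes and all gene lists were chosen with earlier results of these data known.

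The study's limits on nuclei were applied: 500 to 50000 UMIs, over 200 genes and mitochondrial UMIs under 5%. Total UMIs per library were 89436507 to 112226479. Nuclei were clustered in 2 rounds (scanpy 1.11.5, leidenalg 0.10.2, Python 3.11.15) without 182 genes, the 30 among them, and named by marker lists. High doublet scores marked 5673 nuclei, kept in the main results and removed in an alternative, although clusters with over 50% such nuclei were left unnamed. In all, 48002 nuclei were named and 4130 were not.

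Levels are UMIs scaled to 1000000 UMIs of a class in a library (CPM), and are compared between classes for 1 gene, not between genes. Genotype was tested with edgeR 4.0.16 (TMM scaling, quasi-likelihood, two-sided, Benjamini-Hochberg over all genes tested) under R 4.3.3, for genes with 10 or more counts that were detected in 10% or more of the nuclei of a genotype. Genes of the 30 below 10% were fitted without a call. The study used an unadjusted threshold of 0.01, which was kept. CPM in that comparison are TMM-scaled and relative to the genes fitted. The SE given with an edgeR fold change is the absolute log2 fold change over the square root of the test's F statistic. Neuron RNA in a class is the median, over pan-neuronal markers, of the level there as a share of that in neurons. No adjusted p of the 30 genes was under 0.05. Over all genes, edgeR gave 121, 132, 362, 450 and 490 genes at p under 0.05 in excitatory neurons, inhibitory neurons, oligodendrocytes, microglia and endothelial cells, and 0, 0, 0, 172 and 55 at adjusted p under 0.05, whereas DESeq2 1.42.0 gave 12, 0, 40, 10 and 9 of the latter. Gene positions came from GENCODE and promoter sequences from RefSeq (GRCm38.p6). No 2 libraries were duplicates: their counts differed beyond sampling noise (chi-square per degree of freedom 34.8 to 93.2). Named were all 30 genes for levels with at least 10 UMIs in the class, and for genotype those with p under 0.05 and the 3 largest fold changes per class past the filter. Genes with fewer UMIs are given where a role group needs them. The division of oligodendrocytes and the neuron clusters named were chosen after their values were seen.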

Additional observations from a re-analysis of the deposited data

Results flagged for a closer look

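Several of the 30 genes moved in opposite directions between genotypes in different classes, with the HET and WT libraries not overlapping in either class. The difference between classes was not tested, and none of these fold changes passed p under 0.05. Only Abca1 in oligodendrocytes and microglia and Msmo1 in oligodendrocytes were past the detection filter. The share of all genes that separate in opposite directions was not computed, so these cases have no background. Abca1 had a log2 fold change of HET over WT of 0.24 in oligodendrocytes, whereas it was -0.17 in microglia, -0.37 in endothelial cells and -0.42 in excitatory neurons. Fdps was at 0.46 in endothelial cells, on 7 and 3 UMIs in the WT and 4 and 5 in the HET libraries, and at -0.31 in excitatory neurons. Msmo1 was at 0.32 in oligodendrocytes and -0.73 in endothelial cells, the latter on 18 UMIs. Sqle was at 0.55 in oligodendrocytes and -0.14 in excitatory neurons. With 2 libraries per genotype, values that do not overlap within 1 class are common: 19.7% of all genes past the filter in excitatory neurons and 36.5% to 43.7% in the glial and endothelial classes.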

How the results depend on the processing

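The count of the 30 genes called between genotypes was 0 in every class under each of 13 alternatives in neurons and 14 in the other classes. Only genes past the filter could be called. In the main setting these were 12 in excitatory neurons, 9 in inhibitory neurons, 8 in oligodendrocytes, 3 in microglia and 1 in endothelial cells. Of the counts of genes highest in a class, 2 moved by over 1.5 times: excitatory neurons had 1 without HET replicate 1 (0 to 1 over the libraries left out), and inhibitory neurons had 2 with classes drawn from marker counts (1 to 1 over the libraries left out). Oligodendrocytes had 15 to 16, microglia 4 to 6 and endothelial cells 8 to 10 when a library was left out. In inhibitory neurons Cyp46a1 turned to 0.031 with classes from marker counts, to 0.17 without WT replicate 2 and to 0.06 without HET replicate 1 (-0.26 to 0.17 over the libraries left out), and Lrp1 turned to 0.022 without WT replicate 2 (-0.13 to 0.022). In microglia Abcg1 turned to 0.18 without WT replicate 1 (-0.53 to 0.18). The cause was not tested. Hmgcs1 in microglia lost p under 0.01 under 8 alternatives, and Mvd in oligodendrocytes passed it with classes from marker counts.

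Genes at p under 0.01 numbered 23 in excitatory neurons, 10 in inhibitory neurons, 177 in oligodendrocytes, 251 in microglia and 203 in endothelial cells. DESeq2 gave 61, 37, 122, 92 and 74, and the replicate block gave 49, 34, 255, 268 and 272. With neuron RNA subtracted, 44 were left in oligodendrocytes, 34 in microglia and 20 in endothelial cells. Over the libraries left out the counts ran from 12 to 172 in excitatory neurons (172 without WT replicate 1), 11 to 242 in inhibitory neurons (242 and 222 without WT replicates 1 and 2), 52 to 339 in oligodendrocytes (52 without HET replicate 1), 149 to 325 in microglia and 86 to 240 in endothelial cells. Deviations of same-numbered libraries correlated at r from -0.04 to 0.17 over the classes. With 2 libraries per genotype this cannot settle whether the numbers pair the samples. With the replicate block none of the 30 genes that were past the filter was called in any class. Over all genes the block gave 0, 0, 190, 213 and 192 at adjusted p under 0.05 by edgeR, in the same order of classes, against 0, 0, 0, 172 and 55 without it. Counts limit the microglia and endothelial classes most, where single genes often had under 10 UMIs per library.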
